A study of Mus musculus with 18 samples.

Results

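The 41 genes described here are the DNA replication and S-phase genes of mouse skin keratinocytes: the factors that license origins, the replicative helicase and its activators, the sliding clamp and its loader, the replicative polymerases and primase, the enzymes that join the lagging strand, those that supply deoxynucleotides, 3 chromatin factors that act behind the fork, and the regulator E2f1. They were chosen by name and known function, in 9 roles, out of 23951 genes in the expression table. All 41 were in the table, and all 41 reached the limit for testing of at least 1 FPKM (fragments per kilobase of transcript, scaled to the mapped fragments of the library) in 3 or more of the 18 libraries, as did 12751 genes in all. In 38 of the 41 the level was at least 1 FPKM in each of the 18 libraries. The study asked how loss of the AP-1 transcription factors JunB and c-Jun in epidermal cells changes hair follicle stem cells and the basal keratinocytes around them. RNA was sequenced from sorted ear skin cells of 6 mice of mixed background and of either sex, which received 4 daily injections of 2 mg tamoxifen from 8 weeks of age and were sampled at day 7. The 3 DKO* mice (814, 815 and 817) carried floxed alleles of both JunB and c-Jun, a tamoxifen-inducible Cre driven by the keratin 5 promoter (K5-Cre-ERT) and the mT/mG reporter, which turns a cell from Tomato to GFP once Cre has acted. Each gave 4 libraries, mutant GFP and non-mutant Tom cells of each cell type. The 3 control mice (Co; 810, 825 and 828) also carried K5-Cre and mT/mG and received tamoxifen, but had JunB and c-Jun wild type or heterozygous for the floxed alleles. Each gave 1 library of each cell type, and the sources used here do not say whether the control cells were GFP or Tom. Bulge hair follicle stem cells (HF-SCs) were CD45-, CD49f high and CD34+. Basal keratinocytes (b-KCs) were CD45-, CD49f high and CD34-. The 6 groups therefore held 3 mice each, and values below are given in the order 810, 825, 828 for Co and 814, 815, 817 for GFP and Tom.

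A cell copies its genome in steps that these genes carry out in turn. In G1 the origin recognition complex, Cdc6 and Cdt1 load the Mcm2-7 ring onto DNA. At the start of S phase Cdc45, the GINS complex and Mcm10 turn the ring into a moving helicase, and primase, the polymerases, the clamp and the ligase then copy both strands while ribonucleotide reductase and thymidylate synthase supply the deoxynucleotides. E2F factors, held back by the retinoblastoma proteins in resting cells, are known to drive many of these genes at the G1/S boundary. Bulge HF-SCs are known to rest for long periods, whereas basal keratinocytes divide to renew the epidermis.

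The values are FPKM with no read counts beside them. The spacing of low values gave an implied depth of 16530000 to 26320000 fragments per library, with 79.2% to 84.2% of low values within 0.1 of a whole fragment, and 3 fragments on a transcript of 1 kb then equal 0.114 to 0.182 FPKM. The deleted genes went with the labels. Jun measured 835, 1030 and 1090 FPKM in the Co, 69.6, 88.4 and 30.4 in the GFP and 308, 332 and 614 in the Tom libraries of HF-SCs, against 876, 980 and 1000 in the Co, 53.9, 65.4 and 29.6 in the GFP and 163, 229 and 400 in the Tom libraries of b-KCs. Junb fell in GFP cells by 2.88 (SE 0.30) in HF-SCs and by 3.69 (SE 0.30) in b-KCs on the log2 scale, with adjusted p = 2.9e-06 and 7.9e-07. Jun and Junb also stood lower in Tom cells than in Co, with log2 differences of -1.94 and -1.27 that passed the test in b-KCs and of -1.30 and -0.56 that did not pass in HF-SCs. Cd34 lay between 161 and 889 FPKM in the 9 HF-SC libraries and between 0.341 and 2.53 FPKM in the 9 b-KC libraries. Krt14 was listed at 0 in 3 b-KC libraries and Krt15 at 0 in 1 HF-SC Co library, although keratinocytes express both strongly, so a listed 0 can be a failed estimate in this table, and no replication gene was listed at 0. The 8 endothelial markers stood apart in 1 group: their summed level was 403 to 1200 FPKM in HF-SC Tom, 44.5 to 76.1 in HF-SC Co, 1.12 to 27.2 in HF-SC GFP and 0.401 to 6.08 in the 9 b-KC libraries, and all 8 had a mean of at least 1 FPKM in HF-SC Tom. Of the 8 leukocyte markers the summed level was 4.02 to 9.44 FPKM in the Co libraries and 91.0 to 806 FPKM in the DKO* libraries, nearly all of it Cd74, while Ptprc, the gene of CD45, reached at most 0.946 FPKM. As these are bulk samples, fewer cells of a type and less RNA per cell cannot be told apart.

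Replication genes were higher in DKO* than in Co cells in both cell types and both fractions. In HF-SC GFP against Co, 22 of the 41 rose and 0 fell, where 13.0% of all tested genes rose and 12.3% fell (limma, Benjamini-Hochberg adjusted p under 0.01, called passing from here on). The median log2 fold change was 0.73, that of all tested genes -0.047, and 38 of the 41 lay above 0. In HF-SC Tom against Co, 30 rose and 0 fell, against 15.7% and 13.9% of all tested genes, with a median of 1.08. In b-KC GFP against Co, 21 rose and 0 fell, where 12.5% and 12.0% of all genes did so, with a median of 0.65. This count rested on single mice: it was 12 without mouse 814, 7 without 815, 31 without 817, 11 without 825 and 10 without 828. In b-KC Tom against Co, 35 rose and 0 fell, beside 15.4% and 15.3% of all genes, with a median of 1.03. Of members below 0 at an unadjusted p under 0.05 there was 1 in these 4 comparisons, Dut in HF-SC GFP. With a log2 fold change of at least 2 added to the adjusted p, on log2(FPKM + 1), which understates changes of low genes, 2 members remained in HF-SC GFP and 8 in HF-SC Tom (2.43% and 3.61% of all tested genes), and 0 in either fraction of b-KCs (1.29% for GFP and 1.25% for Tom). All 3 libraries lay above all 3 Co libraries for 31 members for GFP and 33 for Tom cells among HF-SCs and 34 for GFP and 37 for Tom cells among b-KCs, where 24.7%, 24.4%, 28.0% and 31.6% of all tested genes did. The 2 fractions of a cell type were compared with the same Co libraries, so their values are set side by side and not as independent results. In these comparisons 15 members passed all 4 times, Cdc45, Chaf1b, Fen1, Gins1, Mcm3, Mcm5, Mcm7, Mcm10, Orc1, Pola2, Prim2, Rfc4, Rrm1, Rrm2 and Tk1, and 4 passed in none, E2f1, Pola1, Pold1 and Rfc1. How many of all tested genes passed all 4 times or in none was not counted, so these sets are given as lists only. In HF-SC Tom the summed endothelial markers were 1200, 1190 and 403 FPKM in mice 814, 815 and 817, and the median distance of the 41 genes above their Co mean was 1.10, 1.07 and 1.27 on the log2 scale in the same order, with 40, 40 and 38 of the 41 above the Co mean. The part of these cells in the values of single genes was not tested. In b-KC Tom, another cell type with its own Co libraries, the 8 endothelial markers summed to 1.51 to 6.08 FPKM, given as a description only.

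**Figure D1:**
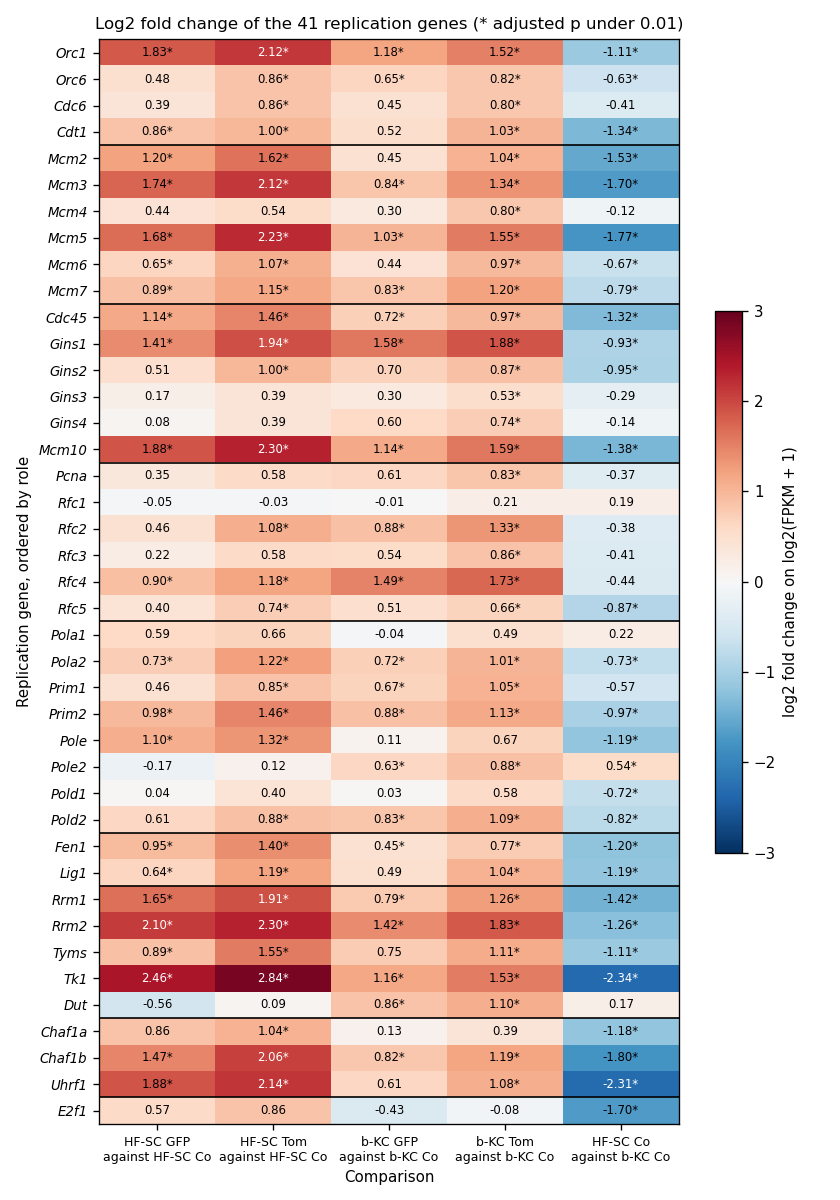
Log2 fold changes of the 41 replication genes (rows, by role, roles parted by lines) in 5 comparisons (columns), on log2(FPKM + 1), with n = 3 mice a group and an asterisk where the adjusted p was under 0.01. Red fills most of the 4 columns against Co, deepest for Tk1 (2.46 and 2.84 in HF-SC GFP and Tom), while the column of HF-SC Co against b-KC Co is mostly blue, with -2.34 for Tk1.

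The promoters were searched for E2F words, which many genes of this kind are known to carry. RefSeq promoter windows of GRCm38.p6, 250 bases before to 50 after each start, were at hand for 34 of the 41 genes. The words TTTCGCGC, TTTGGCGC, TTTCCCGC and TTTGCCGC, read on both strands and allowed to overlap each other, were found in 14 of the 34 (41.2%) and in 704 of 27025 genes of the table (2.6%). Without the first T they were found in 64.7% of the members and 10.9% of all genes. CCAAT, the word bound by NF-Y, was found in 58.8% of the members and 41.1% of all genes, and the CHR words TTTGAA and TTCGAA in 20.6% and 21.7%. The 14 genes with an E2F word were Cdc6, Cdt1, Gins3, Lig1, Mcm3, Mcm5, Mcm6, Mcm7, Orc1, Pola1, Pold1, Pole2, Rfc3 and Uhrf1. In HF-SC GFP against Co, 8 of these 14 and 11 of the 20 without a word passed, with median log2 fold changes of 0.65 and 0.88. The counts were 9 of 14 and 16 of 20 for HF-SC Tom, 5 of 14 and 13 of 20 for b-KC GFP, and 12 of 14 and 17 of 20 for b-KC Tom. Tk1 and Rrm2, with the largest changes in HF-SC GFP, held none. To show how alike the matches are, 1 word is printed for each of the 8 genes that had one lying, with 10 bases on each side, wholly in the 250 bases before the start. Where a gene had several such words, the one nearest the start is shown. Mcm7 has a further word after the start, and Rfc3, whose words begin within 10 bases of the start, is not shown. The sequences are written 5′ to 3′ on the strand of the gene, with the word in capitals. The first base of the word lay 138 bases before the start in Cdc6 and Pola1, 41 in Gins3, 149 in Mcm5, 47 in Mcm6, 165 in Mcm7, 27 in Orc1 and 185 in Uhrf1.
Cdc6 (chr11:98908003-98908030, plus strand): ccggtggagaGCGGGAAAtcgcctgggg
Gins3 (chr8:95633508-95633535, plus strand): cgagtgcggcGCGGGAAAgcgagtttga
Mcm5 (chr8:75109350-75109377, plus strand): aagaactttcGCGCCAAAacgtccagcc
Mcm6 (chr1:128359735-128359762, minus strand): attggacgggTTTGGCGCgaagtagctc
Mcm7 (chr5:138172031-138172058, minus strand): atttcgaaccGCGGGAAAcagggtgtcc
Orc1 (chr4:108579417-108579444, plus strand): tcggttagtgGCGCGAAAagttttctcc
Pola1 (chrX:93632276-93632303, minus strand): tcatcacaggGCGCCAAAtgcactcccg
Uhrf1 (chr17:56304118-56304145, plus strand): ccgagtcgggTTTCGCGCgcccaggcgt

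The whole 250 bases before the start are shown for Uhrf1 and Orc1, the 2 genes with the largest change in HF-SC GFP among those with a word, and for Dut, the gene with the lowest log2 fold change there (-0.56), with E2F words in capitals. For Uhrf1, whose table entry has 2 windows, the one with a word is printed.
Uhrf1 (chr17:56304063-56304312, plus strand): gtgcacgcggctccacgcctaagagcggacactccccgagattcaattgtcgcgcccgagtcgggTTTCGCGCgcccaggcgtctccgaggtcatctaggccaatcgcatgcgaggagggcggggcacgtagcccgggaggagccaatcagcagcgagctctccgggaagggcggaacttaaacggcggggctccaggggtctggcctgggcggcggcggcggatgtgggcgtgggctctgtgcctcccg
Orc1 (chr4:108579204-108579453, plus strand): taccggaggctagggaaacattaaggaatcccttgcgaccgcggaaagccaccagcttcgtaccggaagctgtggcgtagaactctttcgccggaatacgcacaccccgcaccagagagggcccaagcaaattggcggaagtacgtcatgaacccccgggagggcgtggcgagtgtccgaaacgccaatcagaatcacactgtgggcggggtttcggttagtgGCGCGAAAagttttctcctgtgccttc
Dut (chr2:125247265-125247514, plus strand): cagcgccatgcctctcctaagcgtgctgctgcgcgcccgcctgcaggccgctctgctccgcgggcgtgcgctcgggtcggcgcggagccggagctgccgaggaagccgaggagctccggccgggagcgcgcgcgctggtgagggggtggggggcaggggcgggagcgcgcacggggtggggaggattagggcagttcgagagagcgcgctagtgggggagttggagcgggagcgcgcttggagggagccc
The window of Dut held no E2F word, and those of Uhrf1 and Orc1 held 1 each. A match describes letters in this window and no more.

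**Figure D2:**
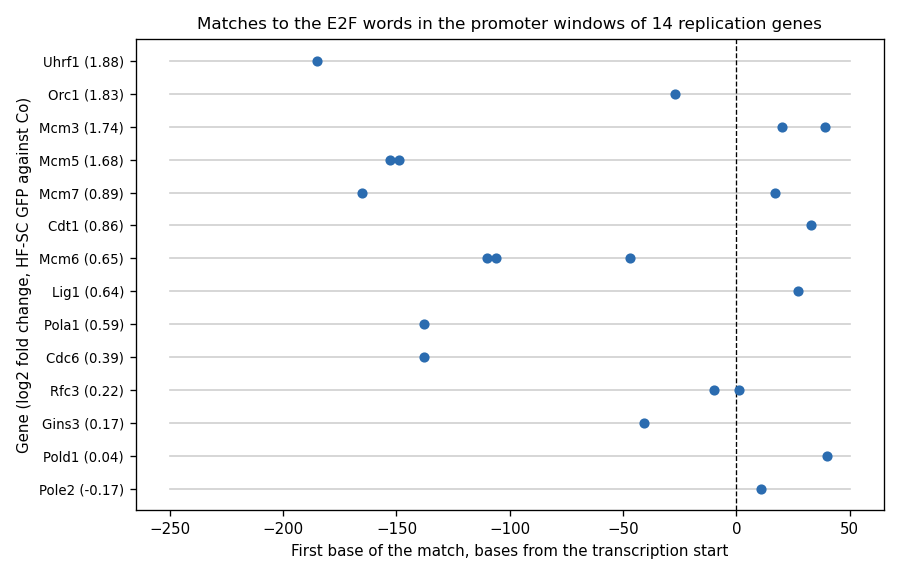
First base of each of the 20 E2F word matches (points), in bases from the transcription start, in the promoter windows of the 14 replication genes that held one (rows, with the log2 fold change of HF-SC GFP against Co in brackets). Matches lie on both sides of the start, and 10 of the 14 genes have one within 60 bases of it. Rows are ordered by that log2 fold change, with the smallest at the bottom.

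Of the 4 licensing factors, Orc1, Cdc6 and Cdt1 had means below the median of the 41 genes in control HF-SCs (8.4 FPKM), and Orc6 had a mean of 12.4 FPKM. Orc1 measured 0.696, 0.604 and 0.899 FPKM in the Co, 5.15, 4.55 and 5.82 in the GFP and 5.74, 5.85 and 8.28 in the Tom libraries of HF-SCs, against 3.26, 2.79 and 2.2 in the Co, 6.85, 6.86 and 8.7 in the GFP and 8.55, 8.3 and 12.6 in the Tom libraries of b-KCs. Orc1, the largest subunit of the origin recognition complex, lies at chr4:108252028-108288633 on the plus strand of NCBI37/mm9. All its DKO* libraries lay above all Co libraries of their cell type, and the change passed in all 4 comparisons, with a log2 fold change of 1.83 ± 0.18 (SE, adjusted p = 1.4e-06) for GFP and 2.12 for Tom cells among HF-SCs and 1.18 for GFP and 1.52 for Tom cells among b-KCs. In HF-SC Co its level corresponded to 58, 46 and 90 fragments. Cdc6 measured 1.24, 0.768 and 1.03 FPKM in the Co, 1.8, 1.73 and 1.36 in the GFP and 2.61, 2.38 and 2.98 in the Tom libraries of HF-SCs, against 2.2, 1.33 and 1.55 in the Co, 2.68, 2.72 and 2.52 in the GFP and 3.31, 3.04 and 4.68 in the Tom libraries of b-KCs. Cdc6, which brings the helicase to the origin, passed in HF-SC Tom and b-KC Tom, with log2 fold changes of 0.86 and 0.80, but not in the GFP fractions, where they were 0.39 and 0.45. All its GFP libraries lay below all Tom libraries in each cell type. Cdt1 measured 3.05, 3.52 and 3.13 FPKM in the Co, 6.19, 7.44 and 6.37 in the GFP and 5.79, 6.28 and 11.2 in the Tom libraries of HF-SCs, against 10.8, 9.82 and 8.65 in the Co, 14.3, 14.5 and 14.3 in the GFP and 15.3, 23.4 and 25.2 in the Tom libraries of b-KCs. Cdt1, the partner of Cdc6 in loading, rose in HF-SC GFP (log2 fold change 0.86), HF-SC Tom (1.00) and b-KC Tom (1.03), and missed the threshold in b-KC GFP (0.52, adjusted p = 0.051). Orc6 measured 13.2, 11.5 and 12.4 FPKM in the Co, 21.1, 16.2 and 16.2 in the GFP and 27.7, 26.2 and 17.2 in the Tom libraries of HF-SCs, against 21.8, 19.1 and 18.4 in the Co, 36, 34.4 and 25.3 in the GFP and 31.8, 37.3 and 37.9 in the Tom libraries of b-KCs. Orc6, the smallest subunit of the recognition complex, rose in Tom cells of HF-SCs (0.86) and in GFP (0.65) and Tom (0.82) cells of b-KCs and had 0.48 with adjusted p = 0.039 in HF-SC GFP, where the 3 libraries still lay above those of Co.

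The 6 subunits of the Mcm2-7 ring, which unwinds the DNA, did not move by the same amount. Of the 6, 5 rose in each HF-SC fraction, 3 in the GFP and all 6 in the Tom fraction of b-KCs, and the median log2 fold changes of the 6 were 1.04, 1.38, 0.64 and 1.12. Mcm5 measured 7.51, 7.05 and 9.8 FPKM in the Co, 32.9, 29.6 and 22.6 in the GFP and 41.3, 37.7 and 45.5 in the Tom libraries of HF-SCs, against 37.5, 27.7 and 25.4 in the Co, 70.2, 64.2 and 52.7 in the GFP and 78.7, 85.3 and 105 in the Tom libraries of b-KCs. Mcm5 (chr8:77633427-77652338, plus strand) stood well above Co in every DKO* library of its cell type, and its value of 2.23 on the log2 scale for HF-SC Tom was among the 4 largest of any member there, with a log2 fold change of 1.68 ± 0.18 (SE, adjusted p = 3.7e-06) in HF-SC GFP. Mcm2 measured 8.32, 7.8 and 9.09 FPKM in the Co, 22.2, 21.5 and 18 in the GFP and 21.8, 25.1 and 39.2 in the Tom libraries of HF-SCs, against 32.8, 23.1 and 23.4 in the Co, 36.3, 34.8 and 37 in the GFP and 48.6, 47.4 and 71.3 in the Tom libraries of b-KCs. Mcm2 rose by 1.20 and 1.62 on the log2 scale for GFP and Tom cells of HF-SCs and by 1.04 for Tom cells of b-KCs. In b-KC GFP its 3 libraries lay above Co but the change of 0.45 did not pass (adjusted p = 0.082). Mcm3 measured 7.79, 8.31 and 9.58 FPKM in the Co, 33.7, 32.3 and 27 in the GFP and 34.8, 37.1 and 51.4 in the Tom libraries of HF-SCs, against 36.1, 29.2 and 25.4 in the Co, 55.8, 51.2 and 56.4 in the GFP and 66.6, 70.8 and 97.2 in the Tom libraries of b-KCs. Mcm3 passed in all 4 comparisons, with 1.74, 2.12, 0.84 and 1.34. Mcm7 measured 18.8, 21.5 and 23.4 FPKM in the Co, 43.8, 43.8 and 33.4 in the GFP and 45.7, 46.6 and 52.4 in the Tom libraries of HF-SCs, against 41.1, 36.9 and 34.6 in the Co, 70.7, 66 and 65.4 in the GFP and 82.9, 80.1 and 101 in the Tom libraries of b-KCs. Mcm7 passed in all 4 as well, with 0.89, 1.15, 0.83 and 1.20, and was the member of the ring whose change was most alike in HF-SCs and b-KCs. Mcm6 measured 38.7, 41.9 and 43.2 FPKM in the Co, 71.8, 68 and 57 in the GFP and 80.8, 85.3 and 96.8 in the Tom libraries of HF-SCs, against 75.9, 64.8 and 59.3 in the Co, 91.9, 88 and 92.1 in the GFP and 127, 111 and 160 in the Tom libraries of b-KCs. Mcm6 rose in HF-SC GFP (0.65), HF-SC Tom (1.07) and b-KC Tom (0.97), and had 0.44 in b-KC GFP. Mcm4 measured 24.7, 26.3 and 22.8 FPKM in the Co, 33.1, 33.7 and 34.4 in the GFP and 28.8, 33.5 and 48.4 in the Tom libraries of HF-SCs, against 31, 25.9 and 23.9 in the Co, 31, 30.5 and 38.6 in the GFP and 46.4, 40 and 57 in the Tom libraries of b-KCs. Mcm4 had the smallest log2 fold change of the 6 in each comparison and passed only in b-KC Tom (0.80), and its HF-SC Co libraries were already near those of b-KC Co, with overlapping ranges.

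Of the 6 genes that turn the loaded ring into a working helicase, 3 rose for GFP and 4 for Tom cells among HF-SCs and 3 for GFP and 6 for Tom cells among b-KCs. Mcm10 measured 0.112, 0.352 and 0.505 FPKM in the Co, 4.06, 4.63 and 2.97 in the GFP and 5.21, 5.01 and 6.32 in the Tom libraries of HF-SCs, against 2.7, 2.34 and 2.22 in the Co, 6.7, 6.75 and 6.08 in the GFP and 8.79, 8.47 and 10.8 in the Tom libraries of b-KCs. Mcm10 (chr2:4910760-4933837, minus strand), which binds the ring at origin firing, was the lowest member in HF-SC Co, where its values corresponded to 11, 32 and 60 fragments. The ratio of its mean FPKM to that of Co was 12.0 in HF-SC GFP and 17.1 in HF-SC Tom, while on log2(FPKM + 1), which understates changes of low genes, the changes were 1.88 ± 0.15 (SE) and 2.30 ± 0.15, with adjusted p = 3.1e-07 and 3.1e-08. Cdc45 measured 3.98, 3.12 and 3.66 FPKM in the Co, 11.1, 8.91 and 7.57 in the GFP and 12.9, 11.9 and 10.1 in the Tom libraries of HF-SCs, against 12.5, 8.65 and 10.5 in the Co, 20.5, 18.1 and 15.3 in the GFP and 17.4, 21.5 and 26.5 in the Tom libraries of b-KCs. Cdc45, part of the moving helicase, rose by 1.14 and 1.46 for GFP and Tom cells of HF-SCs and by 0.72 and 0.97 for those of b-KCs, and in each the 3 libraries lay above Co. Gins1 measured 2.42, 1.89 and 2.27 FPKM in the Co, 9.93, 7.18 and 5.84 in the GFP and 15.3, 11.4 and 8.13 in the Tom libraries of HF-SCs, against 6.7, 4.18 and 4.63 in the Co, 21.4, 20.5 and 11.6 in the GFP and 19.7, 21.9 and 22.7 in the Tom libraries of b-KCs. Gins1 had the largest change of any member in b-KC GFP (1.58) and b-KC Tom (1.88), and the subunits of the same complex did not follow it evenly. Gins2 measured 9.44, 6.24 and 9.77 FPKM in the Co, 18.5, 11.6 and 8.67 in the GFP and 18.3, 19.6 and 15.2 in the Tom libraries of HF-SCs, against 22.6, 15.1 and 14.5 in the Co, 33.8, 28.5 and 23.9 in the GFP and 27.5, 34.1 and 35.3 in the Tom libraries of b-KCs. Gins2 rose in HF-SC Tom (1.00) and b-KC Tom (0.87), and its HF-SC GFP libraries overlapped those of Co. Gins3 measured 2.79, 2.42 and 2.52 FPKM in the Co, 3.64, 2.54 and 2.93 in the GFP and 4.06, 4.18 and 2.88 in the Tom libraries of HF-SCs, against 3.93, 3.02 and 3.21 in the Co, 4.17, 4.94 and 4.02 in the GFP and 4.5, 6.12 and 5.42 in the Tom libraries of b-KCs. Gins3 passed only in b-KC Tom (0.53, adjusted p = 0.0099), close to the threshold. Gins4 measured 28.4, 22.1 and 26.6 FPKM in the Co, 33.2, 26.8 and 22.1 in the GFP and 40.1, 38.1 and 25.5 in the Tom libraries of HF-SCs, against 29.1, 28.9 and 26.8 in the Co, 51.3, 48.8 and 32.8 in the GFP and 45.3, 54.9 and 44.1 in the Tom libraries of b-KCs. Gins4 passed only in b-KC Tom (0.74), and its HF-SC Co and HF-SC GFP libraries lay in the same range, with a log2 difference of 0.08.

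The clamp and its loader were the role with the smallest changes in HF-SCs apart from single genes: 1 of 6 rose for GFP and 3 for Tom cells among HF-SCs and 2 for GFP and 5 for Tom cells among b-KCs, and the median log2 fold changes were 0.38, 0.66, 0.57 and 0.84. Pcna measured 107, 81.8 and 83.1 FPKM in the Co, 133, 101 and 113 in the GFP and 189, 143 and 90.8 in the Tom libraries of HF-SCs, against 122, 117 and 110 in the Co, 193, 187 and 156 in the GFP and 215, 190 and 217 in the Tom libraries of b-KCs. Pcna, the sliding clamp that holds the polymerase on DNA, had the highest mean of all members in HF-SC Co. It passed for b-KC Tom alone (0.83), and its 3 libraries of HF-SC Tom spread from within the Co range to 189 FPKM. Pcna has a named pseudogene copy in the annotation, so reads shared with it are uncertain. Rfc1 measured 16.9, 16.4 and 17.6 FPKM in the Co, 17.1, 14.8 and 17.2 in the GFP and 15.7, 16.2 and 17.8 in the Tom libraries of HF-SCs, against 14.7, 14.9 and 14.8 in the Co, 13.7, 13.4 and 17.4 in the GFP and 17.2, 15.1 and 20 in the Tom libraries of b-KCs. Rfc1, the large subunit of the clamp loader, did not pass in any comparison, with log2 fold changes of -0.05 in HF-SC GFP (95% interval -0.31 to 0.20), -0.03 in HF-SC Tom, and -0.01 and 0.21 for GFP and Tom cells of b-KCs. Rfc4 measured 18.8, 14 and 16.1 FPKM in the Co, 38.1, 29.2 and 27.2 in the GFP and 56.4, 38.2 and 25.5 in the Tom libraries of HF-SCs, against 24.8, 21.7 and 20.7 in the Co, 71.3, 75.8 and 49.4 in the GFP and 80.6, 74.2 and 73.9 in the Tom libraries of b-KCs. Rfc4, a small subunit of the same loader, was the member of this role with the largest changes, 0.90, 1.18, 1.49 and 1.73, and passed in all 4 comparisons. Rfc2 measured 23.1, 21.3 and 24.9 FPKM in the Co, 37.7, 30.7 and 28.6 in the GFP and 58.7, 49.4 and 42.8 in the Tom libraries of HF-SCs, against 31, 30.9 and 28.8 in the Co, 63.4, 60.2 and 47.3 in the GFP and 71.1, 86.7 and 75.2 in the Tom libraries of b-KCs. Rfc2 rose in Tom cells of HF-SCs (1.08) and in GFP (0.88) and Tom (1.33) cells of b-KCs, and had 0.46 with adjusted p = 0.019 in HF-SC GFP. Rfc3 measured 32.8, 24.1 and 31.8 FPKM in the Co, 42.7, 31.6 and 29.8 in the GFP and 55.3, 49.2 and 31.6 in the Tom libraries of HF-SCs, against 46.2, 34.5 and 37.9 in the Co, 66.6, 59.5 and 47.9 in the GFP and 61.8, 79.5 and 75.5 in the Tom libraries of b-KCs. Rfc3 passed only in b-KC Tom (0.86), with HF-SC libraries of both fractions that overlapped Co. Rfc5 measured 20.7, 17.2 and 21.6 FPKM in the Co, 32.3, 24.3 and 23.4 in the GFP and 32.3, 35 and 33.8 in the Tom libraries of HF-SCs, against 42.6, 36.5 and 32.1 in the Co, 63.3, 53.8 and 43.4 in the GFP and 51.5, 59 and 67.5 in the Tom libraries of b-KCs. Rfc5 rose in HF-SC Tom (0.74) and b-KC Tom (0.66), and its changes of 0.40 and 0.51 in the GFP fractions did not pass.

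Among the 8 subunits of primase and polymerases alpha, delta and epsilon, 3 rose in HF-SC GFP and 5 in each of the other 3 comparisons. Pola2, Prim1, Prim2 and Pold2 were among the 5 each time, with Pole as the fifth in HF-SC Tom and Pole2 in both b-KC fractions. Pola2 measured 6.3, 6.93 and 6.7 FPKM in the Co, 13, 12.1 and 10.2 in the GFP and 15.8, 17.9 and 16.9 in the Tom libraries of HF-SCs, against 14.3, 10.9 and 10.3 in the Co, 20.3, 22.5 and 17.4 in the GFP and 21.9, 24.1 and 28.4 in the Tom libraries of b-KCs. Pola2, the second subunit of polymerase alpha, passed in all 4, with 0.73, 1.22, 0.72 and 1.01. Pola1 measured 3.57, 6.21 and 5.25 FPKM in the Co, 5.94, 8.09 and 10.2 in the GFP and 9.26, 5.91 and 10.4 in the Tom libraries of HF-SCs, against 3.26, 4.52 and 4.48 in the Co, 3.01, 3.35 and 5.83 in the GFP and 7.69, 4.38 and 6.58 in the Tom libraries of b-KCs. Pola1, the catalytic subunit of the same enzyme, passed in none, and its libraries overlapped Co in all 4 comparisons. Prim2 measured 5.73, 5.28 and 5.69 FPKM in the Co, 14.6, 10.9 and 10.7 in the GFP and 18.9, 18.4 and 14.1 in the Tom libraries of HF-SCs, against 13.1, 11.9 and 10.6 in the Co, 24.8, 24.8 and 18.6 in the GFP and 23.2, 27.3 and 30.9 in the Tom libraries of b-KCs. Prim2, the large subunit of primase, passed in all 4, with 0.98, 1.46, 0.88 and 1.13. Prim1 measured 20.5, 15.3 and 17.7 FPKM in the Co, 31.8, 22.9 and 20.6 in the GFP and 39.8, 33.3 and 26.5 in the Tom libraries of HF-SCs, against 30.5, 25.7 and 24.6 in the Co, 47.9, 47.8 and 35.3 in the GFP and 53.9, 54.1 and 62.7 in the Tom libraries of b-KCs. Prim1, which makes the RNA primer, rose in Tom cells of HF-SCs (0.85) and in GFP (0.67) and Tom (1.05) cells of b-KCs, and had 0.46 with adjusted p = 0.06 in HF-SC GFP. Pole measured 1.21, 1.66 and 1.65 FPKM in the Co, 3.81, 4.47 and 4.83 in the GFP and 3.62, 4.77 and 8.11 in the Tom libraries of HF-SCs, against 5.92, 3.93 and 4.44 in the Co, 4.77, 4.3 and 6.68 in the GFP and 8.28, 5.65 and 11.2 in the Tom libraries of b-KCs. Pole, the catalytic subunit of the leading-strand polymerase, rose in both HF-SC fractions (1.10 for GFP and 1.32 for Tom) and in neither b-KC fraction, where the changes were 0.11 and 0.67. Pole2 measured 11.4, 10.7 and 13.3 FPKM in the Co, 11.1, 9.88 and 10 in the GFP and 13.7, 15 and 10.4 in the Tom libraries of HF-SCs, against 8.57, 8.13 and 6.71 in the Co, 14.6, 13 and 10.3 in the GFP and 13.3, 16.6 and 15.8 in the Tom libraries of b-KCs. Pole2, its partner subunit, rose in b-KC GFP (0.63) and b-KC Tom (0.88), while HF-SC GFP and HF-SC Tom overlapped Co with -0.17 and 0.12. For neither subunit did the difference between the cell types pass in limma fitted to all mice without a block. The adjusted p for Pole was 0.078 for GFP and 0.24 for Tom, and for Pole2 it was 0.024 and 0.025. This call depended on the fit. Once a random mouse block was added, Pole2 passed for GFP (-0.80, adjusted p = 0.0083) and Tom (-0.76, adjusted p = 0.0096), and Pole passed for neither. When mouse 817 was left out of limma, both passed for GFP (Pole 1.08, adjusted p = 0.0072, Pole2 -0.91, adjusted p = 0.0043) and neither for Tom. Pold1 measured 5.33, 9.55 and 8.86 FPKM in the Co, 6.95, 8.63 and 8.33 in the GFP and 8.93, 8.94 and 14.3 in the Tom libraries of HF-SCs, against 14.2, 13.2 and 12.7 in the Co, 13.2, 13.2 and 14.7 in the GFP and 18.3, 18.7 and 25 in the Tom libraries of b-KCs. Pold1, the catalytic subunit of the lagging-strand polymerase, did not pass in any of the 4, and in the GFP fractions its mean was within 1.03 times that of Co. Pold2 measured 19.3, 24.5 and 20 FPKM in the Co, 30.3, 33.9 and 34.5 in the GFP and 35.1, 32.3 and 55.4 in the Tom libraries of HF-SCs, against 41.1, 41.5 and 32.6 in the Co, 74.6, 66.4 and 66 in the GFP and 62.5, 84.8 and 106 in the Tom libraries of b-KCs. Pold2, its accessory subunit, rose in Tom cells of HF-SCs (0.88) and in GFP (0.83) and Tom (1.09) cells of b-KCs.

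The 2 enzymes that finish the lagging strand rose in nearly all comparisons. Fen1 measured 11, 11.5 and 12 FPKM in the Co, 26.5, 22.5 and 20.7 in the GFP and 31.9, 29.8 and 34.5 in the Tom libraries of HF-SCs, against 31.6, 27 and 25 in the Co, 40.6, 39.2 and 35.6 in the GFP and 43.7, 46.6 and 54.6 in the Tom libraries of b-KCs. Fen1, the flap nuclease that trims Okazaki fragments, passed in all 4, with 0.95, 1.40, 0.45 and 0.77. Lig1 measured 6.47, 5.99 and 7.52 FPKM in the Co, 12.1, 12.1 and 8.91 in the GFP and 15.7, 14.1 and 20.1 in the Tom libraries of HF-SCs, against 18.8, 15.2 and 15.5 in the Co, 24.2, 23.3 and 23 in the GFP and 31.9, 30.1 and 44.3 in the Tom libraries of b-KCs. Lig1, the ligase that seals them, passed in HF-SC GFP (0.64), HF-SC Tom (1.19) and b-KC Tom (1.04) and had 0.49 with adjusted p = 0.027 in b-KC GFP. For both genes no DKO* library lay within the Co range of its cell type.

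Of the 5 genes that supply deoxynucleotides, 4 rose in each comparison with Co except that of b-KC Tom, where all 5 rose. Tk1 measured 5.7, 3.46 and 4.83 FPKM in the Co, 41.2, 28 and 22.5 in the GFP and 44.9, 38.6 and 34.2 in the Tom libraries of HF-SCs, against 33.6, 25.2 and 23.7 in the Co, 76.1, 69.2 and 44.8 in the GFP and 68.2, 88.5 and 85.3 in the Tom libraries of b-KCs. Tk1 (chr11:117676840-117687406, minus strand), the thymidine kinase of the salvage route, had the largest log2 fold change of any member in both HF-SC comparisons, with a log2 fold change of 2.46 ± 0.24 (SE, adjusted p = 1.2e-06) in HF-SC GFP and a log2 fold change of 2.84 ± 0.24 (SE, adjusted p = 2.4e-07) in HF-SC Tom, or 6.56 and 8.42 times the Co mean. Its b-KC changes were 1.16 and 1.53. Rrm2 measured 21.9, 11.5 and 15.4 FPKM in the Co, 82.9, 68.6 and 62.7 in the GFP and 68, 74.2 and 107 in the Tom libraries of HF-SCs, against 44.7, 39.5 and 34.1 in the Co, 105, 113 and 101 in the GFP and 137, 125 and 165 in the Tom libraries of b-KCs. Rrm2 (chr12:25393106-25399011, plus strand), the subunit of ribonucleotide reductase that is made in S phase, rose by 2.10, 2.30, 1.42 and 1.83, and every DKO* library lay above every Co library of its cell type. Rrm1 measured 23.7, 21.4 and 25.5 FPKM in the Co, 85, 68.6 and 75.1 in the GFP and 97.6, 86.2 and 89.2 in the Tom libraries of HF-SCs, against 69.6, 64.6 and 59.8 in the Co, 116, 105 and 116 in the GFP and 167, 136 and 168 in the Tom libraries of b-KCs. Rrm1, the other subunit, rose in all 4 comparisons with 1.65, 1.91, 0.79 and 1.26. Tyms measured 5.47, 4.79 and 6.97 FPKM in the Co, 16.5, 8.96 and 9.9 in the GFP and 24.4, 16.7 and 15.7 in the Tom libraries of HF-SCs, against 13.9, 11.8 and 14.8 in the Co, 30.4, 21.2 and 19.5 in the GFP and 29.5, 26.4 and 35.2 in the Tom libraries of b-KCs. Tyms, the thymidylate synthase, rose in HF-SC GFP (0.89), HF-SC Tom (1.55) and b-KC Tom (1.11), and had 0.75 with adjusted p = 0.016 in b-KC GFP. Dut measured 17.9, 13.1 and 11.2 FPKM in the Co, 12.1, 8.37 and 7.32 in the GFP and 17.4, 16 and 11.7 in the Tom libraries of HF-SCs, against 13.7, 10.3 and 12.7 in the Co, 26.4, 27.5 and 16.4 in the GFP and 22.5, 27.7 and 32.1 in the Tom libraries of b-KCs. Dut, the dUTPase that keeps uracil out of DNA, differed from these: it had the lowest log2 fold change of the 41 in HF-SC GFP, -0.56 with adjusted p = 0.068, and 0.09 in HF-SC Tom, but rose in b-KC GFP (0.86) and b-KC Tom (1.10). Its HF-SC libraries of both fractions overlapped those of Co.

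All 3 chromatin factors had larger log2 fold changes for HF-SCs than for b-KCs by value. Uhrf1 measured 3.93, 4.61 and 5.27 FPKM in the Co, 20.3, 21.6 and 17.1 in the GFP and 19, 19.8 and 35.2 in the Tom libraries of HF-SCs, against 31.2, 26.9 and 22.7 in the Co, 43.8, 40.5 and 39.7 in the GFP and 51.6, 53.4 and 68.9 in the Tom libraries of b-KCs. Uhrf1 (chr17:56442744-56462909, plus strand), which guides maintenance methylation to newly copied DNA, rose in HF-SC GFP with a log2 fold change of 1.88 ± 0.20 (SE, adjusted p = 3.3e-06) and in HF-SC Tom by 2.14 and in b-KC Tom by 1.08, and had 0.61 with adjusted p = 0.023 in b-KC GFP. Chaf1b measured 6.6, 4.65 and 5.73 FPKM in the Co, 21.1, 18.2 and 13.5 in the GFP and 25.3, 28 and 26.2 in the Tom libraries of HF-SCs, against 26.8, 22.6 and 17.5 in the Co, 40.4, 43.3 and 35.4 in the GFP and 41.4, 53.2 and 61.4 in the Tom libraries of b-KCs. Chaf1b, a subunit of the chromatin assembly factor that places histones behind the fork, passed in all 4 comparisons with 1.47, 2.06, 0.82 and 1.19. Chaf1a measured 3.91, 6.36 and 4.96 FPKM in the Co, 8.84, 11.6 and 9.46 in the GFP and 9.1, 9.14 and 17.4 in the Tom libraries of HF-SCs, against 14.8, 11.7 and 11.6 in the Co, 13.5, 12.8 and 15.7 in the GFP and 17.3, 11.2 and 24.2 in the Tom libraries of b-KCs. Chaf1a, the large subunit of the same factor, passed only in HF-SC Tom (1.04), and its libraries in b-KC GFP and b-KC Tom overlapped Co. E2f1 measured 1.64, 2.74 and 2.9 FPKM in the Co, 3.56, 4.41 and 4.14 in the GFP and 3.95, 4.02 and 8.27 in the Tom libraries of HF-SCs, against 11, 9.84 and 9.2 in the Co, 5.45, 6.95 and 9.5 in the GFP and 6.63, 8.3 and 14.7 in the Tom libraries of b-KCs. E2f1, a member of the E2F family, passed in none of the 4. Its HF-SC libraries of both fractions lay above those of Co, with 0.57 and 0.86, while in b-KCs it had -0.43 and -0.08 with overlapping ranges.

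**Figure D3:**
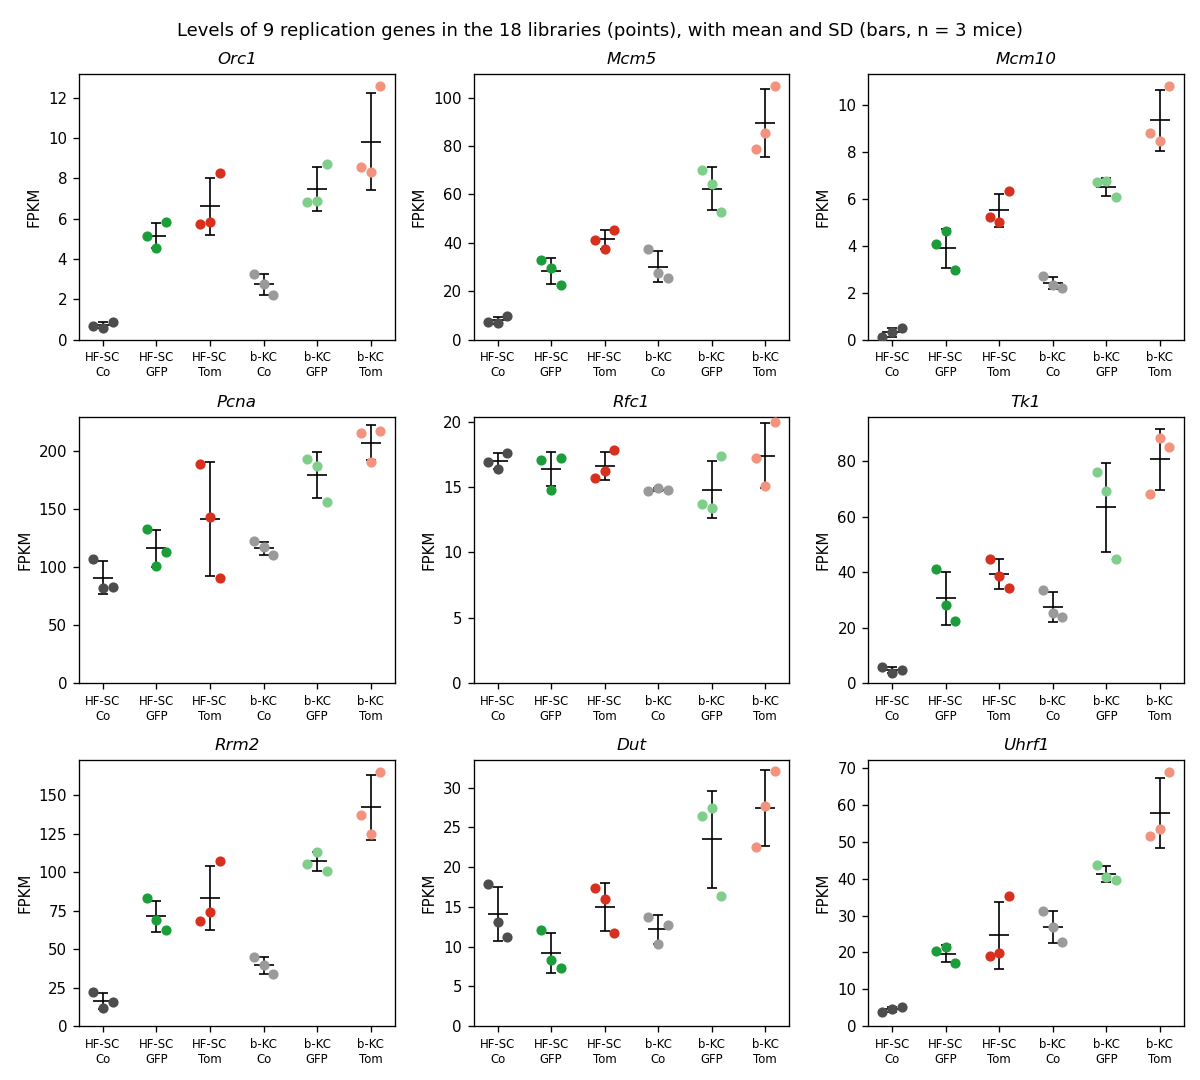
FPKM of 9 replication genes (panels, each with its own axis from 0) in the 18 libraries (points), with the mean and SD of the 3 mice of a group (bars). Orc1, Mcm5, Mcm10, Tk1, Rrm2 and Uhrf1 step up from HF-SC Co to the DKO* groups, Rfc1 stays between 13.4 and 20 FPKM, and Dut lies above every Co library in both b-KC fractions and overlaps Co in both HF-SC fractions.

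Averaged over the genes of a role, the order of the groups was much the same from licensing to chromatin. The mean log2(FPKM + 1) over all 41 genes was 3.26, 3.19 and 3.32 in the Co, 4.26, 4.09 and 3.97 in the GFP and 4.47, 4.41 and 4.51 in the Tom libraries of HF-SCs, against 4.33, 4.10 and 4.04 in the Co, 4.88, 4.83 and 4.71 in the GFP and 5.04, 5.09 and 5.37 in the Tom libraries of b-KCs. HF-SC Co was thus lowest and b-KC Tom highest, with no overlap between HF-SC Co and any other group. By group means HF-SC Co was lowest for 37 of the 41 genes, with Dut, Pola1, Pole2 and Rfc1 the others, and b-KC Tom was highest for 39, with Pola1 and E2f1 the others. The change in the role mean in HF-SC GFP against Co was 1.41 for chromatin, 1.31 for nucleotide supply, 1.10 for the helicase, 0.89 for licensing, 0.87 for helicase activation, 0.80 for lagging strand joining, 0.54 for polymerases and 0.38 for the clamp and its loader. In b-KC GFP against Co the largest were 1.00 for nucleotide supply and 0.84 for helicase activation, and that of chromatin was 0.52.

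**Figure D4:**
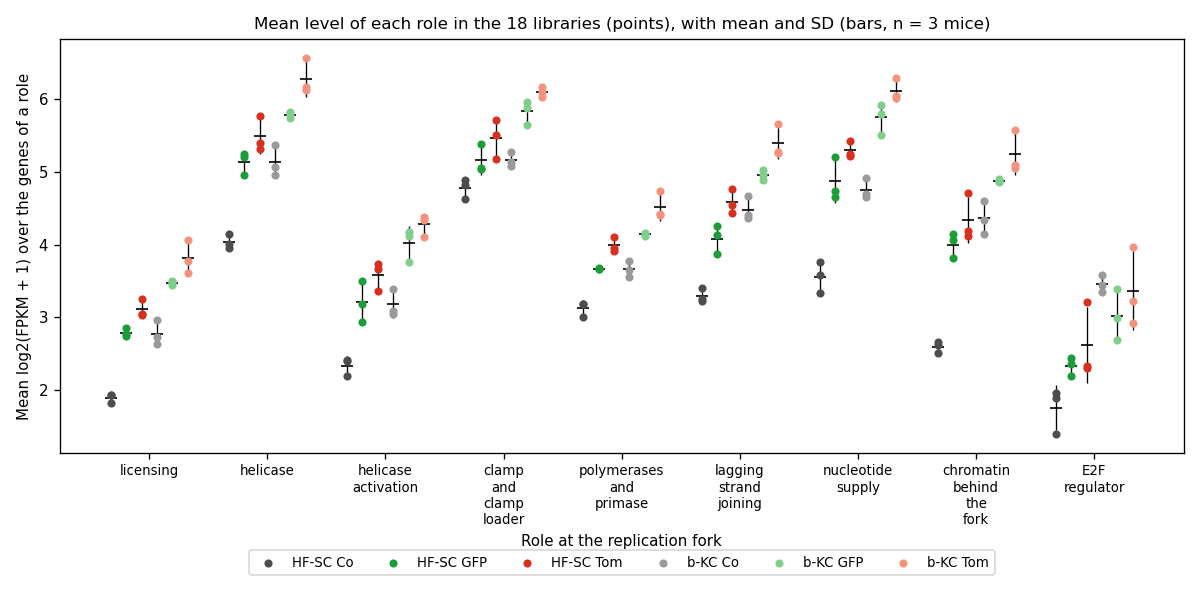
Mean log2(FPKM + 1) over the genes of each role (horizontal axis) in the 18 libraries (points, coloured by group), with the mean and SD of the 3 mice of a group (bars). HF-SC Co is the lowest group in every role, and b-KC Tom the highest in every role except E2f1, where b-KC Co has the higher mean.

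Control HF-SCs had less of these genes than control b-KCs of the same mice. In HF-SC Co against b-KC Co 28 of the 41 were lower and 1 was higher, where 19.3% of all tested genes were lower and 18.7% higher, and the median log2 difference was -0.93. Without mouse 810, 18 passed, all of them lower. The same libraries differed in markers of other cells: of 5 tested suprabasal markers 4 were lower in HF-SC Co (median -2.96), while 7 of 8 endothelial (median 2.38) and 3 of 5 tested fibroblast markers (median 2.58) were higher, as were 6 of 7 bulge HF-SC markers (median 2.37). Their sums in HF-SC Co and b-KC Co were 669 to 875 and 6710 to 8310 FPKM for suprabasal, 44.5 to 76.1 and 1.08 to 2.33 for endothelial, and 45.9 to 95.5 and 4.28 to 6.16 for fibroblast markers, and their part in the lower replication genes was not tested. The largest differences were those of Tk1 (-2.34), Uhrf1 (-2.31) and Chaf1b (-1.80), and the libraries of the 2 cell types did not overlap for any of the 3. The 1 gene that was higher in HF-SC Co was Pole2, at 11.4, 10.7 and 13.3 FPKM against 8.57, 8.13 and 6.71, with a log2 difference of 0.54 ± 0.15 (SE) and adjusted p = 0.0077. The DKO* stem cells were set beside control b-KCs as well. The mean of HF-SC GFP was above that of b-KC Co for 15 of the 41 genes and that of HF-SC Tom for 35, compared with 4 for HF-SC Co, and the median log2 ratio to the b-KC Co mean was -0.09 for HF-SC GFP, 0.28 for HF-SC Tom and -0.95 for HF-SC Co. These last ratios are given as a description, without a test. Markers of cell identity moved in the same libraries: of 7 bulge HF-SC markers 4 fell in HF-SC GFP and 5 in HF-SC Tom (medians -1.01 and -1.27 on the log2 scale), and of 5 tested suprabasal markers 3 and 2 rose, with medians of 1.84 and 1.20. In b-KCs 1 of the 7 bulge markers fell in GFP and 5 in Tom cells (medians -0.56 and -1.43), with sums of 3100 to 3160 FPKM in Co, 528 to 1170 in GFP and 180 to 700 in Tom libraries, and 2 of the 5 suprabasal markers fell in each fraction. Over all tested genes the shares that rose and fell were those given above for each comparison (13.0% and 12.3% in HF-SC GFP, for example). The summed suprabasal markers were 669 to 875 FPKM in HF-SC Co, 1680 to 3380 in HF-SC GFP and 1610 to 2060 in HF-SC Tom. Their part in the level of the replication genes was not tested.

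Within the DKO* mice, GFP cells were set against Tom cells of the same skin. In HF-SCs 0 of the 41 genes passed in either direction. Of all 12751 tested genes, 521 (4.09%) were lower in GFP there and 115 were higher. In b-KCs 0 of the 41 passed, where 16 of all tested genes (0.125%) were lower in GFP and 46 were higher. These tests used limma, and 0 members passed also with the mouse as a fixed block in each cell type. Every one of the 41 had a lower mean of log2(FPKM + 1) in GFP than in Tom in both cell types, with medians of -0.36 and -0.35, and 17 and 16 of them had an unadjusted p under 0.05, all in that direction, where 2545 and 1470 of all 12751 tested genes had such a p in either direction. The smallest adjusted p in HF-SCs was that of Rfc2, at 37.7, 30.7 and 28.6 FPKM in GFP and 58.7, 49.4 and 42.8 in Tom, with a log2 fold change of -0.62 ± 0.14 (SE, adjusted p = 0.011). With the mouse as a random block Rfc2 was the 1 member that passed (adjusted p = 0.002). In b-KCs the smallest was that of Rrm1, with a log2 fold change of -0.47 ± 0.12 (SE, adjusted p = 0.06). All 3 GFP libraries lay below all 3 Tom libraries for 13 of the 41 in HF-SCs and 17 in b-KCs, where 10.2% and 7.35% of all tested genes did. GFP was lower than Tom in each of the 3 mice for 25 in HF-SCs and 26 in b-KCs, where 21.5% and 19.1% of all tested genes were. Mouse 817 differed most. Its GFP cells were lower for 38 of the 41 genes in HF-SCs and 41 in b-KCs, with medians of -0.62 and -0.68, against 32 and 28 genes and medians of -0.25 and -0.16 in mouse 814 and 34 and 39 genes and medians of -0.34 and -0.28 in mouse 815. Over all tested genes the share lower in GFP lay between 45.7% and 53.1% in the 6 pairs. Mouse 817 also had the lowest Jun in GFP cells and the highest in Tom cells of each cell type, and the part of this in the difference was not tested. Without mouse 817, 1 member passed in HF-SCs, Rfc2 (-0.65, adjusted p = 0.0044), and 0 in b-KCs. Shares of all tested genes with the random block or without mouse 817 were not counted. The summed endothelial markers were 403 to 1200 FPKM in HF-SC Tom against 1.12 to 27.2 in HF-SC GFP, and 1.51 to 6.08 in b-KC Tom against 0.401 to 1.84 in b-KC GFP, and their part in these differences was not tested.

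**Figure D5:**
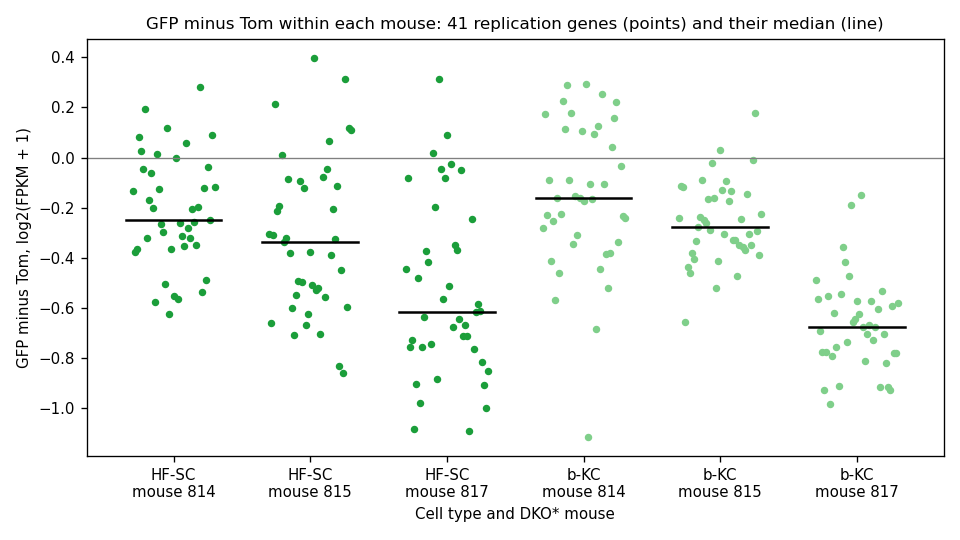
Difference in log2(FPKM + 1) between GFP and Tom cells of the same DKO* mouse for the 41 replication genes (points), with their median (line), in 3 mice and 2 cell types. Most points lie below 0 in each of the 6 pairs, from 28 of 41 in b-KCs of mouse 814 to 41 of 41 in b-KCs of mouse 817.

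Whether the change against Co differed between the cell types was tested by the difference of the changes. In GFP cells 2 of the 41 rose more in HF-SCs, where 3.32% of all tested genes did: Uhrf1, by 1.27 ± 0.28 (SE, adjusted p = 0.008), and Rrm1, by 0.86 ± 0.17 (SE, adjusted p = 0.0038). Rrm1 went from 23.6 ± 2.1 to 76.3 ± 8.3 FPKM (mean ± SD, n = 3) in HF-SCs and from 64.7 ± 4.9 to 112 ± 6.1 in b-KCs. On the log2 scale this gene changed more in HF-SCs, which had its lower Co level. In Tom cells 0 passed in limma, where 5.93% of all tested genes rose more in HF-SCs, and 12 of the 41 had an unadjusted p under 0.05, of which 10 were above 0, beside 29.0% of all tested genes at that p in either direction. With the mouse as a random block 6 members passed in GFP cells, Mcm3, Rrm1, Tk1 and Uhrf1 above 0 and Dut and Pole2 below 0, and 5 in Tom cells, Fen1, Rrm1, Tk1 and Uhrf1 above 0 and Pole2 below 0. Neither Rrm1 nor Uhrf1 passed when any mouse other than 817 was left out, and without 817 both passed among 10 members, 8 above 0 and 2 below 0, while 5 members passed in Tom cells. Shares of all tested genes under the block or without mouse 817 were not counted, so these counts have no background beside them. The medians of the 41 differences were 0.14 in GFP and 0.12 in Tom cells.

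Other genes of replication were counted in the same way. Of 64 other replication genes in 5 lists (licensing and firing, fork, nucleotide supply, chromatin, and E2F and G1/S regulators), 27 rose and 3 fell for GFP and 30 and 4 for Tom cells of HF-SCs, and 17 and 2 for GFP and 37 and 3 for Tom cells of b-KCs, where 13.0% and 12.3%, 15.7% and 13.9%, 12.5% and 12.0%, and 15.4% and 15.3% of all tested genes rose and fell. The same shares apply to the single lists. The log2 fold changes had medians of 0.49, 0.59, 0.39 and 0.78. Dbf4, the activating partner of the Cdc7 kinase that fires origins, measured 2.12, 2.06 and 2.35 FPKM in the Co, 15.8, 13.1 and 11.5 in the GFP and 17.4, 14.9 and 12.8 in the Tom libraries of HF-SCs, and rose by 2.18 and 2.33 on the log2 scale, with no overlap. Cyclin E1 (Ccne1), which drives Cdk2 at the G1/S boundary, rose by 2.05 for GFP and 2.16 for Tom cells among HF-SCs and 1.72 for GFP and 1.97 for Tom cells among b-KCs. Gmnn, the inhibitor of Cdt1, rose by 1.93, 2.56, 1.28 and 1.68 in the same order. Asf1b, a histone chaperone, was at 4.94, 4.05 and 5.03 FPKM in HF-SC Co and 24.5, 29.3 and 34.5 in HF-SC Tom, and rose by 2.41 there. Of E2F and G1/S regulators, which hold other E2F factors and the retinoblastoma family, 8 of 16 rose in HF-SC GFP, 8 rose and 1 fell in HF-SC Tom, 2 rose and 1 fell in b-KC GFP, and 6 rose and 1 fell in b-KC Tom. Among the 8 other genes of nucleotide supply, 2 rose and 2 fell in HF-SC GFP and 4 rose and 2 fell in HF-SC Tom. In b-KCs 2 of the 8 rose and 1 fell in GFP and 4 rose and 2 fell in Tom cells. Named after its values were seen, Rrm2b, the p53-induced form of the small reductase subunit, fell in all 4 comparisons, by 0.95, 1.04, 0.71 and 0.65 on the log2 scale, while its S-phase counterpart Rrm2 rose in all 4.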

How the data were processed

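RNA-seq of 18 libraries, 6 groups of 3 mice, was analysed. The authors deposited 1 table of FPKM values, normalised for transcript length and mapped fragments. Per the study's methods and the submitters' processing notes, 51-base single-end reads of unstranded SMART-Seq v4 libraries were mapped to NCBI37/mm9 with TopHat2 2.0.10 and Bowtie 1.0.0 and quantified with Cufflinks 2.2.1. The notes also list a later mouse build, whose role is not given in the sources used here.

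Since FPKM are not counts, values were tested as log2(FPKM + 1) with limma 3.58.1 in R 4.3.3 (moderated test with a trend, 6 group means). The 12751 genes with at least 1 FPKM in 3 libraries were tested, and p-values were adjusted by Benjamini-Hochberg per comparison over all of them. An adjusted p under 0.01 is called passing. Tables were handled with Python 3.11.15, numpy 2.4.6 and pandas 2.3.3 and drawn with matplotlib 3.10.9. The fit was tested on simulated data. Gene positions are from an mm9 annotation and promoters from RefSeq GRCm38.p6, and the builds were not mixed.

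The 41 genes, the lists of other genes and the markers were chosen with earlier results of these data known. All 41 are named. Of the other replication genes, the 3 with the largest absolute change in HF-SC GFP and in HF-SC Tom are named, and promoters are shown for the 2 members with the largest change in HF-SC GFP that hold an E2F word and for the member with the lowest. Mouse numbers pair the libraries, since the titles give the same mouse for several fractions. In 20 of 21 same-mouse pairs of libraries the deviations from the group means correlated at over 0.1 (mean 0.39). Because the libraries were not stranded, 13 members overlapped by a gene on the other strand (Orc1, Mcm7, Cdc45, Gins2, Rfc4, Rfc5, Pola1, Pole, Fen1, Lig1, Tyms, Tk1 and Chaf1a) may hold reads of it. Alternatives were another pseudocount, no filter, rescaled libraries, only the groups compared, no trend, other thresholds, the mouse as a block, and leaving out each mouse.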

Additional observations from a re-analysis of the deposited data

Results flagged for a closer look

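For 2 genes the size of the GFP change against Co was not the same in the 2 cell types, by the test of the difference itself in limma, which 2 of the 41 members and 3.32% of all tested genes passed with the larger change in HF-SCs. For Rrm1 the log2 difference of the changes was 0.86 (SE 0.17, adjusted p = 0.0038), and for Uhrf1 it was 1.27 (SE 0.28, adjusted p = 0.008). Every GFP library of both cell types lay above every Co library of its own cell type for both genes, so the difference is one of size and not of direction. Leaving out mouse 810, 814, 815, 825 or 828 left 0 members passing, and leaving out mouse 817 left 10, with Rrm1 at 0.89 and Uhrf1 at 1.34 among them. Shares of all tested genes in these fits were not counted.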

How the results depend on the processing

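With a log2 fold change of at least 1 added, 13 members passed in HF-SC GFP against Co, 7 in b-KC GFP, 22 in b-KC Tom, 18 between the Co groups and 1 for the difference of the GFP changes (in either direction 1529, 1381, 1873, 2550 and 553 of the 12751 tested genes). With at least 2 the counts were 2 for GFP and 8 for Tom cells of HF-SCs, 0 for GFP and 0 for Tom cells of b-KCs, 2 between the Co groups and 0 for the difference of the GFP changes (all genes 3.07%, 4.09%, 1.87%, 2.75%, 5.65% and 0.863%). At an adjusted p under 0.05, 3 passed between HF-SC GFP and Tom, 7 for the difference of the GFP changes and 9 for that of the Tom changes (all genes 8.63%, 12.5% and 15.8%). For the Tom difference 2 passed with a pseudocount of 0.1 and 1 with only the groups compared, and for the GFP difference 1 passed with no filter. With the mouse as a random replicate block 1 passed between HF-SC GFP and Tom, 6 for the GFP difference and 5 for the Tom difference, and the block moved no other count by over 1.5 times. For the pseudocount, the groups compared, no filter, the block and leaving out a mouse, shares of all tested genes were not counted. Those counts of members have no background beside them. The E2F word without its first T was in 64.7% of members.

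Leaving out each mouse gave 15 to 27 members in HF-SC GFP, 26 to 33 in HF-SC Tom, 7 to 31 in b-KC GFP, 25 to 34 in b-KC Tom, 0 to 1 between HF-SC GFP and Tom, 0 to 0 between b-KC GFP and Tom, 18 to 30 between the Co groups, 0 to 10 for the GFP difference and 0 to 5 for the Tom difference. In b-KC GFP 12 passed without mouse 814, 7 without 815, 31 without 817, 11 without 825 and 10 without 828, and between the Co groups 18 passed without 810. Signs turned, in changes that did not pass, in HF-SC GFP for Gins4 (-0.067 to 0.215), Pold1 (-0.19 to 0.179) and Rfc1 (-0.089 to 0.014), in HF-SC Tom for Dut (-0.043 to 0.27) and Rfc1 (-0.083 to 0.001), in b-KC GFP for Pola1 (-0.275 to 0.11), Pold1 (-0.013 to 0.074), Pole (-0.043 to 0.254) and Rfc1 (-0.121 to 0.058), and in b-KC Tom for E2f1 (-0.383 to 0.138). Of the passing members, 15 of 22, 22 of 30, 7 of 21 and 24 of 35 passed in every other setting at an adjusted p under 0.01 for GFP and Tom cells of HF-SCs and then of b-KCs. The causes were not tested.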
